A study of Mus musculus with 18 samples.

Results

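The genes described here are 7 inhibitory receptors of B cells, Cd22, Fcgr2b, Cd72, Siglecg, Pirb, Lair1 and Cd5, together with Inpp5d, which encodes the phosphatase SHIP-1. They were taken by symbol from the 23420 genes listed for each library, and all 8 were found, Pirb under its older symbol Lilrb3. Transcripts were measured by RNA sequencing in splenic B cells purified with beads from MRL/lpr mice aged 5 to 7 weeks. MRL/lpr is a lupus-prone strain that carries the lpr mutation of Fas, and all groups shared that background. The 18 libraries formed 6 groups of 3, and every culture lasted 4 h.

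In the first arm, mice were female and Tlr7-/-. Their B cells carried either Tlr9+/- (called Tlr9het here) or Tlr997, an allele at the Tlr9 locus that encodes TLR9 with the intracellular signaling (TIR) domain of TLR7. Each of these genotypes was left unstimulated or given 10 µg/ml of the CpG oligonucleotide ODN 1826, a ligand of TLR9. In the second arm, mice were male and Tlr9-/-, and carried Tlr779, an allele at the Tlr7 locus that encodes TLR7 with the TIR domain of TLR9. Their B cells were left unstimulated or given 5 µg/ml of the TLR7 ligand CL097. The sample titles write the Tlr9 genotype of the control group as a heterozygote while the treatment description writes a knockout, and the titles were followed. A comparison genotype for Tlr779 was not analysed here. The chimeric alleles were made by CRISPR in MRL/lpr mice, each at its endogenous locus. The ages are those of the sample labels, while the study's methods place the females at the lower end of that range. The arms differed in sex, genotype and ligand at once, and by those methods in age, which cannot be told apart, so that each arm was compared only within itself. Cells were purified by removing those bound by antibodies to CD43, CD4, CD8, CD11b, CD11c and Gr-1, after incubation with the antibody 2.4G2, which binds the protein product of Fcgr2b. B-1 cells, a subset rich in CD5, carry CD43, so that a selection of this kind removes them along with T cells.

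B cell inhibitory receptors set a brake on signals from the antigen receptor. On engagement, the kinase Lyn phosphorylates tyrosines in their immunoreceptor tyrosine-based inhibitory motifs (ITIMs), and these recruit the tyrosine phosphatase SHP-1 (Ptpn6) or the lipid phosphatase SHIP-1 (Inpp5d). FcγRIIB, the product of Fcgr2b, senses immune complexes and works through SHIP-1, and its loss or low level is a known feature of lupus-prone mice. CD22 and Siglec-G bind sialic acids, CD72 binds the semaphorin CD100 (Sema4d), PIR-B binds MHC class I, and LAIR-1 binds collagens.

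Cd22, Siglecg, Pirb and Lair1 lie on chromosome 7 (GRCm38), at chr7:30865402-30880342 (minus strand), chr7:43408204-43418358 (plus), chr7:3711409-3720391 (minus) and chr7:4003402-4063204 (minus). Fcgr2b is at chr1:170958617-170976547 (minus), Inpp5d at chr1:87620312-87720507 (plus), Cd72 at chr4:43446462-43454628 (minus) and Cd5 at chr19:10717116-10739002 (minus). The values are sums over all exons of a gene, without isoforms.

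Sequences of the ITIM form are shown because matches to that form were found in each of the receptor genes and not in Inpp5d. The coding sequences of GENCODE (GRCm38) were translated and searched for the ITIM form, which has isoleucine, leucine, valine or serine 2 residues before a tyrosine and isoleucine, leucine or valine 3 residues after it. The form occurred 5 times in Cd22, 4 times each in Siglecg, Pirb and Cd72, 2 times each in Lair1 and Cd5, and 1 time in Fcgr2b, and Inpp5d had 0. It is a loose pattern, found at least 1 time in 49.0% of 21463 genes, so that a match does not by itself mark a working motif. The lines below give the 18 coding bases, 5′ to 3′, of 10 matches, with the tyrosine codon in capitals and the residue number of that tyrosine. Apart from Cd72, whose cytoplasmic tail is at its amino terminus, the matches shown lie in the last part of the protein, where the tail is. The counts above also include matches not shown. Those at Cd22 tyrosine 5, Siglecg tyrosine 196 and Pirb tyrosine 109 lie outside that part, and the 2 of Cd5 are left out as well.
Fcgr2b tyrosine 319: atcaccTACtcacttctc
Cd22 tyrosine 817: gtcactTACtcggtgata
Cd22 tyrosine 843: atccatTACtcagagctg
Cd22 tyrosine 863: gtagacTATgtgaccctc
Siglecg tyrosine 659: ctccacTATgctgctctc
Cd72 tyrosine 7: atcacgTATgcagacctg
Pirb tyrosine 794: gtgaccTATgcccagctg
Pirb tyrosine 824: agtgtaTATgctactctg
Lair1 tyrosine 228: gtgacgTATatccagctg
Lair1 tyrosine 257: agcacaTATgcagccatc

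The labels were checked against the values. Summed CPM (read counts scaled to a common library total) lay between 991992 and 1004412, the depth in reads is unknown, and values correlated within groups at Pearson's r of 0.944 to 0.989 across 11676 genes, which are not independent replicates. The deposited values were log2 CPM, and every level below is on that scale unless CPM is written. Tlr7 was at group means of 3.15 to 5.34 in the Tlr7-/- arm and 6.88 to 7.38 in Tlr779, and Tlr9 was at 7.04 to 8.01 in all groups, the Tlr9-/- arm included, so that gene-level values did not verify that label. B cell markers were high throughout (Cd79a at group means of 7.67 to 10.94), while Cd3e, a component of the T cell receptor complex, was at group means of -2.74 to 1.55. Summed CPM by library was 12.3 to 500 for 6 erythroid markers and 24.5 to 178 for 8 neutrophil markers. In unstimulated Tlr997 the erythroid sum ranged from 21.1 to 486. In bulk RNA of this kind, fewer cells of a type and less RNA per cell cannot be told apart.

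Levels of different genes were compared as CPM per kb of exon, where Inpp5d led in unstimulated cells. In Tlr9het it stood at 221 CPM per kb, followed by Cd72 at 112, Cd22 at 76.2, Siglecg at 63.7 and Fcgr2b at 39.5 CPM per kb. Pirb was lower, at 3.68 CPM per kb, and Cd5 and Lair1 were at 0.762 and 0.381. With CpG the same cells held 109 CPM per kb of Cd72, but 12.6 of Fcgr2b, 10.7 of Siglecg, 7.73 of Cd22 and 7.19 of Inpp5d. Cd72 thus passed from the second place among the 8 genes to the first. Their CPM summed to 2115 ± 117 (SD, n = 3) in unstimulated Tlr9het and 458 ± 9.64 with CpG, to 1965 ± 107 and 609 ± 53.7 in Tlr997, and to 1852 ± 110 without and 686 ± 47.1 with CL097 in Tlr779.

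**Figure D1:**
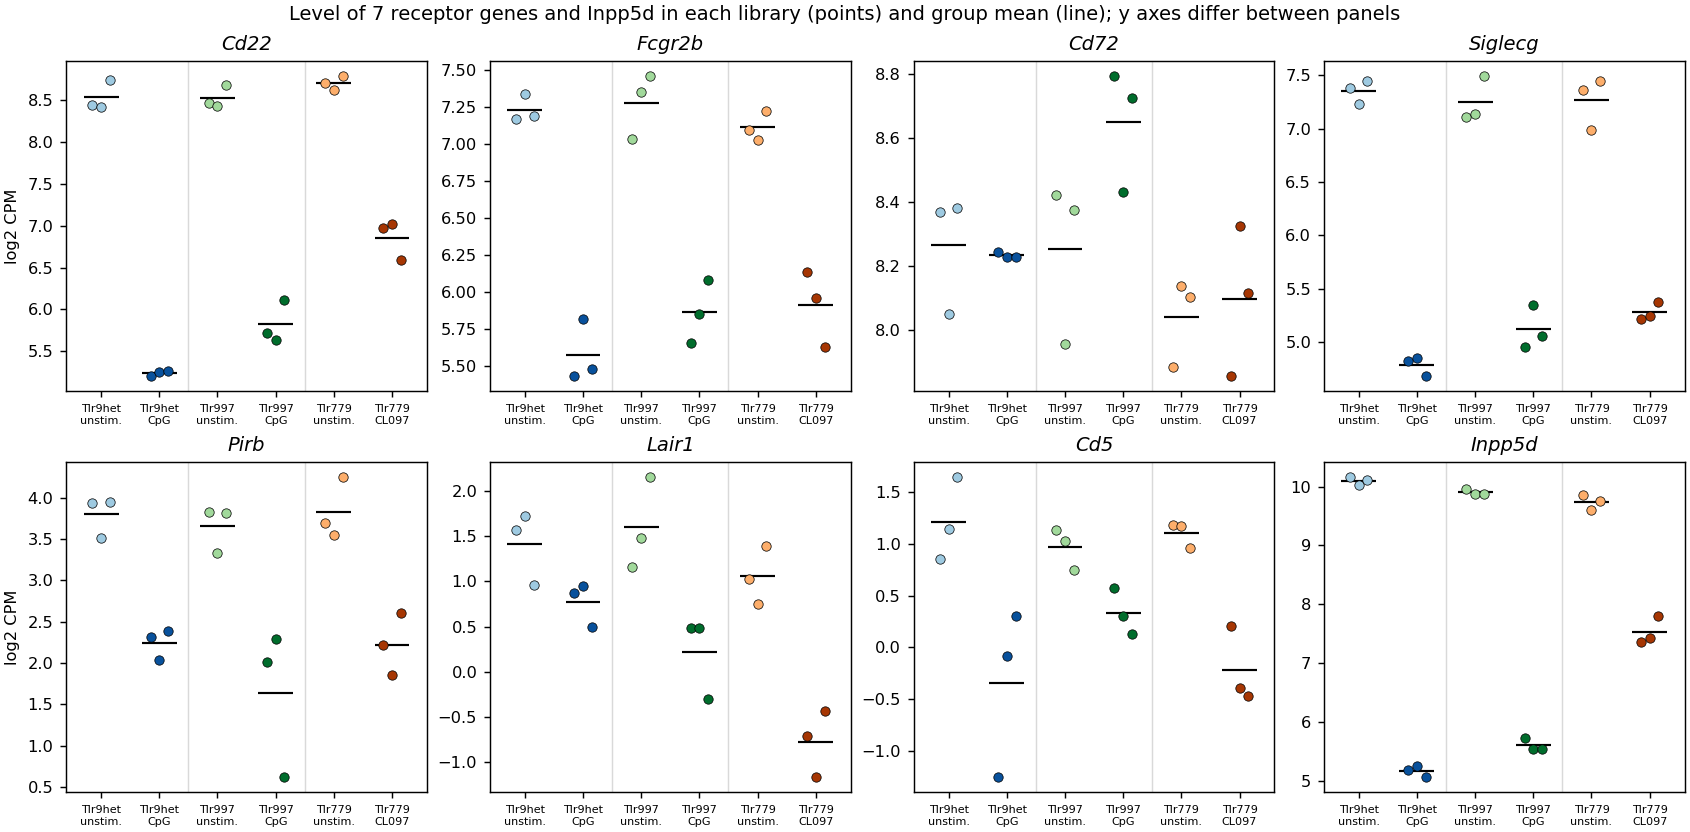
Level of each gene in each library, in log2 CPM (y axis, with its own range in each panel), for the 6 groups of 3 libraries (x axis). Points are libraries and lines are group means. Group means of every gene but Cd72 were lower with stimulus in each genotype, and Cd72 stayed between 7.86 and 8.79 in all 18 libraries.

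Each response was tested as the difference of log2 CPM between stimulated and unstimulated cells with limma over all genes that passed a filter on low values. A gene was called where the Benjamini-Hochberg adjusted p was under 0.05 and the absolute log2 fold change was over 0.5. All 8 genes passed the filter in both arms, Lair1 in Tlr779 only through its unstimulated libraries. Cd5 would not have passed in Tlr779 without its unstimulated libraries, its values with CL097 being 0.20, -0.40 and -0.47. With CpG, 6 of the 8 genes were called lower in Tlr9het, where 28.2% of 11494 tested genes were called lower and 29.7% higher, and 6 were called lower in Tlr997, where the shares were 26.0% and 29.6%. With CL097, 7 including Lair1 and Cd5 were called lower in Tlr779, where 23.6% of 11082 tested genes were called lower and 22.7% higher. No member was called higher in any of the 3 responses by limma, and at an unadjusted p under 0.05 the number higher was 0, 1 and 0. The median log2 fold change of the 8 genes was -1.61, -1.72 and -1.72, against 0.04, 0.07 and -0.02 over all tested genes.

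SHIP-1 removes a phosphate from the lipid that PI3K makes, and its gene Inpp5d fell most of the 8. Inpp5d was at 10.16, 10.03 and 10.11 in unstimulated Tlr9het and at 5.18, 5.25 and 5.06 with CpG. The fall was 4.94 on the log2 scale (SE 0.067, limma adjusted p = 1.8e-14), a 30.7-fold lower level. Among the 11494 genes tested, 16 had a lower fold change. In Tlr997, Inpp5d went from 9.96, 9.87 and 9.88 to 5.73, 5.54 and 5.55, which is -4.30 on the log2 scale (SE 0.067, limma adjusted p = 1.9e-13), and in Tlr779 it went from 9.85, 9.60 and 9.76 to 7.35, 7.42 and 7.80 with CL097, which is -2.21 (SE 0.125, limma adjusted p = 6.6e-06). The stimulated and unstimulated libraries were far apart in all 3 genotypes, and stimulated Tlr779 libraries kept 21.6% of the starting CPM, against 3.25% in Tlr9het and 5.07% in Tlr997. These percentages come from different arms and were not tested against each other. The study named Inpp5d and Cd22 among genes with a negative role in B cell activation. It reported them as higher in stimulated Tlr779 than in stimulated Tlr7+/Y B cells, a comparison of genotypes and not of stimulus. That comparison took in the Tlr779 libraries given CL097, so the choice of these genes was not independent of these libraries.

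Both receptors for sialic acid fell next. CD22 restrains antigen receptor signaling through SHP-1. Cd22 was at 8.44, 8.42 and 8.74 in unstimulated Tlr9het and at 5.20, 5.26 and 5.26 with CpG, and fell by 3.29 (SE 0.117, limma adjusted p = 3.3e-11). In Tlr997 it was at 8.47, 8.43 and 8.69 without and 5.72, 5.64 and 6.11 with CpG, and fell by 2.71 (SE 0.117, limma adjusted p = 2.4e-10). In Tlr779 it was at 8.71, 8.62 and 8.79 without and 6.97, 7.02 and 6.59 with CL097, and fell by 1.85 (SE 0.116, limma adjusted p = 9.2e-06). Within the first arm, unstimulated Tlr9het and Tlr997 libraries overlapped for Cd22, while with CpG the Tlr997 libraries lay above those of Tlr9het. Values of Tlr779 come from the other arm and were not compared with these. Antisense transcript Gm29439 shares 479 exon bases with Cd22. Siglecg encodes Siglec-G, the other sialic acid receptor of B cells and a regulator of B-1 cell numbers. It went from 7.38, 7.23 and 7.45 to 4.82, 4.85 and 4.68 in Tlr9het, from 7.11, 7.14 and 7.49 to 4.96, 5.35 and 5.06 in Tlr997, and from 7.36, 6.99 and 7.44 to 5.21, 5.25 and 5.38 in Tlr779. Siglecg was therefore lower in every stimulated library than in any unstimulated one, with log2 fold changes of -2.57, -2.12 and -1.99 (SE 0.117, 0.117 and 0.123, limma adjusted p = 2.9e-10, 2.2e-09 and 8.8e-06).

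Fcgr2b, the gene of the only Fc receptor for IgG on B cells, fell less than Inpp5d, Cd22 and Siglecg in each genotype. It was at 7.16, 7.34 and 7.19 in unstimulated Tlr9het and 5.43, 5.82 and 5.48 with CpG, a change of -1.65 on the log2 scale (SE 0.132, limma adjusted p = 7.9e-08). It was at 7.03, 7.35 and 7.46 in unstimulated Tlr997 and 5.66, 5.85 and 6.08 with CpG, a change of -1.42 on the log2 scale (SE 0.132, limma adjusted p = 4.4e-07). In Tlr779 it was at 7.09, 7.03 and 7.22 without and 6.14, 5.96 and 5.63 with CL097, a change of -1.21 on the log2 scale (SE 0.128, limma adjusted p = 1.0e-04). Stimulated cells of the 3 genotypes kept 31.8%, 37.5% and 43.4% of the starting CPM, and with CpG the Tlr9het and Tlr997 libraries overlapped. The percentage of Tlr779 comes from the other arm and was not tested against those of the first. Exons of Fcgr2b share 155 bases with the antisense gene Gm38204.

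Cd72 was the exception. CD72 is a C-type lectin-like receptor that recruits SHP-1 and is released from inhibition by CD100. Cd72 was at 8.37, 8.05 and 8.38 in unstimulated Tlr9het and at 8.24, 8.23 and 8.23 with CpG, a log2 fold change of -0.03 with a 95% interval of -0.30 to 0.24. In Tlr779 it was at 7.89, 8.14 and 8.10 without and 7.86, 8.33 and 8.12 with CL097, a log2 fold change of 0.06 (95% interval -0.23 to 0.34). In both genotypes the stimulated and unstimulated libraries overlapped. In Tlr997 it was at 8.42, 7.96 and 8.38 without and 8.79, 8.43 and 8.73 with CpG. The 3 libraries with CpG lay above the 3 without, but the change of 0.40 on the log2 scale (SE 0.126, limma adjusted p = 0.012) was under the threshold of 0.5. Without replicate 2 of Tlr997 with CpG it was 0.51 and was called. Exons of Cd72 share 1423 bases with Tesk1 on the other strand, and the strand setting of the counting is not given in the sources used here. Tesk1 was at group means of 6.31 to 6.76.

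**Figure D2:**
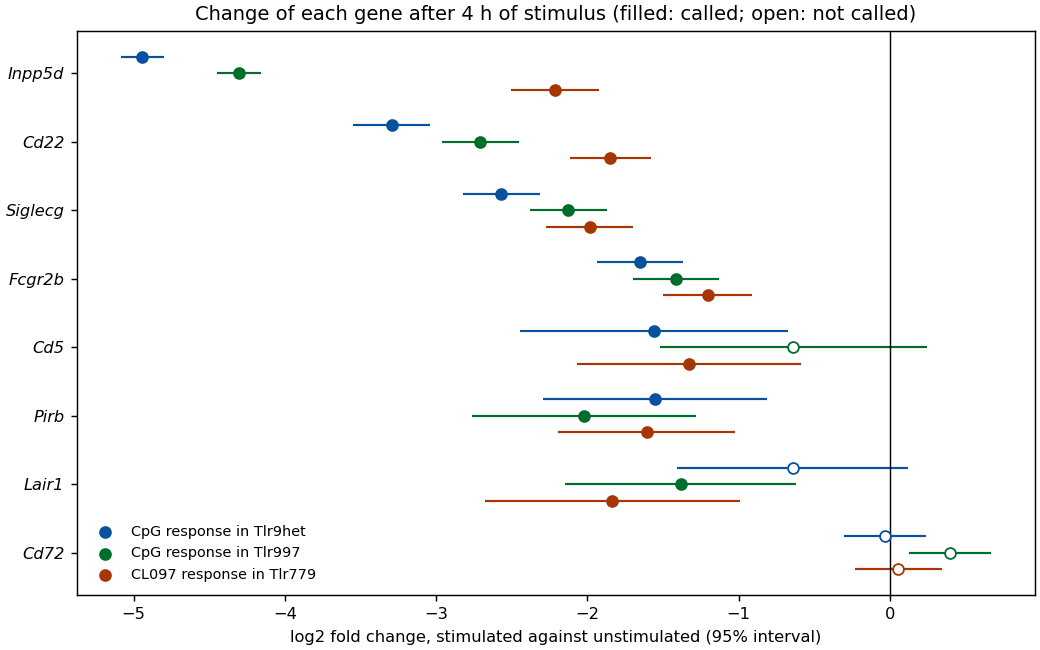
Log2 fold change of each gene between stimulated and unstimulated cells (x axis), with 95% intervals from limma, for CpG in Tlr9het, CpG in Tlr997 and CL097 in Tlr779. Filled points were called and open points were not. Inpp5d and Cd22 fell most with CpG, and the intervals of Cd72 include 0 in Tlr9het and Tlr779.

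Pirb, Lair1 and Cd5 were expressed at low levels, and their values varied more between libraries. PIR-B, an MHC class I receptor, is shared by B cells and myeloid cells. Pirb went from 3.94, 3.52 and 3.95 to 2.32, 2.04 and 2.39 in Tlr9het, from 3.83, 3.33 and 3.82 to 2.01, 2.29 and 0.61 in Tlr997, and from 3.69, 3.55 and 4.25 to 2.22, 1.85 and 2.599 in Tlr779. All 3 falls were called, by 1.55, 2.02 and 1.61 (SE 0.343, 0.343 and 0.253, limma adjusted p = 0.0011, 1.3e-04 and 8.3e-04). Pirb has near-identical copies among the activating Pira genes, between which reads could be split in counting, so its value is uncertain. Pira2 was at group means of 3.72 to 4.17 in unstimulated and 1.53 to 2.26 in stimulated cells.

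Lair1, a collagen receptor of many leukocytes, was at 1.57, 1.73 and 0.96 in unstimulated Tlr9het and 0.88, 0.95 and 0.50 with CpG, and was not called there (log2 fold change -0.64, SE 0.353, limma adjusted p = 0.12). In Tlr997 it went from 1.16, 1.49 and 2.16 to 0.48, 0.49 and -0.31, and fell by 1.38 (SE 0.353, limma adjusted p = 0.0032). In Tlr779 it went from 1.03, 0.75 and 1.40 to -0.71, -1.17 and -0.44, and fell by 1.83 (SE 0.365, limma adjusted p = 0.0028). Groups of libraries did not overlap in any of these 3 responses. With CL097 all 3 Lair1 values were below the filter's limit of 0, so Lair1 was tested there only through its unstimulated libraries. Its call and lack of overlap in Tlr779 are therefore given as a description. Macrophages also express Pirb and Lair1. The summed CPM of 11 listed macrophage and monocyte markers was 279 to 384 without and 188 to 238 with CpG in Tlr9het, 218 to 523 and 139 to 302 in Tlr997, and 251 to 559 without and 138 to 293 with CL097 in Tlr779. Csf1r and Lyz2, which define these cells, were present at group means of 4.26 to 5.40 and 5.56 to 7.33. Of these 11 markers 2 were called lower in each response and 0 higher. Shares over all tested genes were 28.2%, 26.0% and 23.6% lower and 29.7%, 29.6% and 22.7% higher. The part of these markers in the results for Pirb and Lair1 was not tested.

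Cd5, a scavenger receptor family member that marks T cells and B-1 cells, was at 0.85, 1.14 and 1.65 in unstimulated Tlr9het and -1.26, -0.09 and 0.30 with CpG, and fell by 1.56 (SE 0.409, limma adjusted p = 0.0037). In Tlr779 it was at 1.19, 1.17 and 0.96 without and 0.20, -0.40 and -0.47 with CL097, and fell by 1.33 (SE 0.320, limma adjusted p = 0.0074). Since Cd5 passed the filter there only with the help of its unstimulated libraries, that call is given as a description. In Tlr997 it was at 1.14, 1.03 and 0.75 without and 0.57, 0.31 and 0.13 with CpG, a log2 fold change of -0.64 that was not called (SE 0.409, limma adjusted p = 0.18), although the groups did not overlap. The summed CPM of 12 T cell markers did not fall with CpG, being 8.90 to 21.8 without and 19.9 to 46.4 with CpG in Tlr9het and 6.66 to 21.8 and 19.2 to 38.2 in Tlr997. In Tlr779 it was 5.15 to 18.3 without and 4.47 to 17.2 with CL097. The summed CPM of 7 B-1 markers was 158 to 176 without and 418 to 444 with CpG in Tlr9het, 158 to 177 and 329 to 446 in Tlr997, and 151 to 160 without and 220 to 361 with CL097 in Tlr779. Of 6 tested B-1 markers, 3 were called lower and 2 higher with CpG in Tlr9het, 2 and 2 in Tlr997, and 3 and 2 with CL097 in Tlr779. For all tested genes the shares were 28.2% and 29.7%, 26.0% and 29.6%, and 23.6% and 22.7%. The part of these markers in the values of Cd5 was not tested.

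Several genes of B cell identity fell with the same stimuli. Of 8 B cell markers, 7 were called lower with CpG in Tlr9het and 1 higher, 4 lower and 0 higher in Tlr997, and 6 lower and 0 higher with CL097 in Tlr779. Among all tested genes, 28.2%, 26.0% and 23.6% were called lower and 29.7%, 29.6% and 22.7% higher. Their summed CPM went from 6370 to 7094 down to 2057 to 2111 in Tlr9het, from 6120 to 6793 down to 3058 to 3624 in Tlr997, and from 6298 to 7950 down to 2812 to 3523 in Tlr779. Cd79a and Cd79b, the signaling chains of the antigen receptor, were called lower in all 3 responses, with Cd79b going from a group mean of 10.90 to 7.17 in Tlr9het. Pax5 went the other way and was called higher with CpG in Tlr9het (0.54, limma adjusted p = 1.3e-05). In Tlr997, group means rose with CpG from 6.79 to 7.26 for Pax5 and from 10.16 to 10.57 for Ms4a1, neither called. Ms4a1 was called lower with CpG in Tlr9het (-0.75). Of 6 marginal zone B cell markers, 5, 5 and 4 were called lower in the 3 responses. The part of these changes in the values of the 8 genes was not tested.

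Genes for proteins that act with ITIMs were called lower or not called. Of 12 tested ITIM effectors, 6 were called lower in Tlr9het with CpG and 7 in Tlr997, and of 11 tested in Tlr779 4 were called lower with CL097. No effector was called higher by limma, while 2 were higher at an unadjusted p under 0.05 in each response. Shares of all tested genes called lower were 28.2%, 26.0% and 23.6%, and called higher 29.7%, 29.6% and 22.7%. The median log2 fold change of the list was -0.73, -0.54 and -0.40. The adaptor Dok3, which limits antigen receptor signaling, fell by 3.65, 3.55 and 1.71 (limma adjusted p = 4.3e-10, 7.3e-10 and 1.5e-05 in Tlr9het, Tlr997 and Tlr779). Sla, an adaptor that lowers antigen receptor levels and that the study named with Inpp5d and Cd22, fell by 3.06, 2.96 and 0.95 (limma adjusted p = 5.5e-12, 1.1e-11 and 0.0019). Ptpn6, which encodes SHP-1, fell by 1.49, 1.19 and 1.22 (limma adjusted p = 5.7e-07, 5.9e-06 and 5.8e-05), from a group mean of 8.72 to 7.23 in Tlr9het. The adaptor Sla2 fell with CpG by 2.67 and 1.58 (limma adjusted p = 8.6e-04 and 0.024), and Csk, a kinase that holds Lyn in check, fell by 1.15, 1.23 and 0.78. Lyn, the kinase upstream of the motifs, was called lower in Tlr997 only (log2 fold change -0.57, against -0.19 in Tlr9het and -0.08 in Tlr779), and the difference of its CpG responses was -0.37 (limma adjusted p = 0.029), under the fold threshold.

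On the PI3K side of SHIP-1, 6 of 10 genes were called lower and 0 higher with CpG in Tlr9het, 5 and 1 in Tlr997, and 3 and 3 with CL097 in Tlr779, with medians of -0.72, -0.60 and -0.21. The shares over all tested genes were 28.2% lower and 29.7% higher, 26.0% and 29.6%, and 23.6% and 22.7%. At an unadjusted p under 0.05, 2 were higher in Tlr9het. Btk, the kinase recruited by the lipid that SHIP-1 removes, fell by 3.22, 2.52 and 1.27 (limma adjusted p = 7.5e-13, 6.5e-12 and 9.9e-06). Pik3r1, a regulatory subunit of PI3K, fell by 1.81, 1.75 and 1.50. Pik3ap1, the adaptor BCAP that recruits PI3K, was called higher with CL097 (0.78, limma adjusted p = 6.9e-04), and Inpp5b, another inositol phosphatase, with CpG in Tlr997 (1.03) and with CL097 (0.78).

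The ligands of these receptors and the enzymes that make sialic acid showed 6, 5 and 5 of 12 genes called lower in the 3 responses and 0 called higher, with medians of -0.54, -0.39 and -0.43. All tested genes had shares of 28.2%, 26.0% and 23.6% called lower and 29.7%, 29.6% and 22.7% higher. At an unadjusted p under 0.05, 1, 1 and 0 were higher. St6gal1, which adds the sialic acid linkage that CD22 prefers, fell by 2.67, 2.40 and 1.84 (limma adjusted p = 1.1e-10, 3.9e-10 and 2.2e-05). Cmah, which makes the glycolyl form of sialic acid, fell by 2.92, 3.35 and 1.70, and Siae, an esterase that trims sialic acids and frees them for CD22, fell by 3.16, 2.41 and 1.98. Sema4d, the ligand of CD72, fell by 1.61, 1.79 and 1.16, where Cd72 itself was not called. Among the MHC class I genes, which supply ligands of PIR-B, H2-D1 was called lower with CpG in Tlr9het (-0.60, limma adjusted p = 1.9e-05) and not in Tlr997 (-0.48) or with CL097 (-0.33), and H2-K1 and B2m were not called in any response, with log2 fold changes between -0.48 and 0.15.

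Of 16 tested inhibitory receptors outside the 8, 8 were called higher and 2 lower with CpG in both genotypes, and 6 higher and 3 lower with CL097, with medians of 0.63, 0.96 and 0.62. Among all tested genes, 29.7%, 29.6% and 22.7% were called higher and 28.2%, 26.0% and 23.6% lower in the 3 responses. Ctla4 rose by 3.01, 1.38 and 1.41 and Tigit by 2.57, 2.51 and 1.80, both from low levels, with Ctla4 at 0.25 and Tigit at -0.33 in unstimulated Tlr9het. Fcrl5, an inhibitory Fc receptor-like protein of marginal zone and age-associated B cells, rose by 2.42, 2.17 and 2.30 (limma adjusted p = 3.9e-10, 1.4e-09 and 3.5e-05), from a group mean of 4.57 to 6.99 in Tlr9het. Btla, the receptor of HVEM, was already high at 8.40 in unstimulated Tlr9het and rose by 1.15, 0.97 and 0.76. Fcrla, an intracellular relative of the Fc receptors, had log2 fold changes of -4.61, -4.30 and -2.59, all called, and Ceacam1 fell by 2.84, 3.09 and 3.56.

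**Figure D3:**
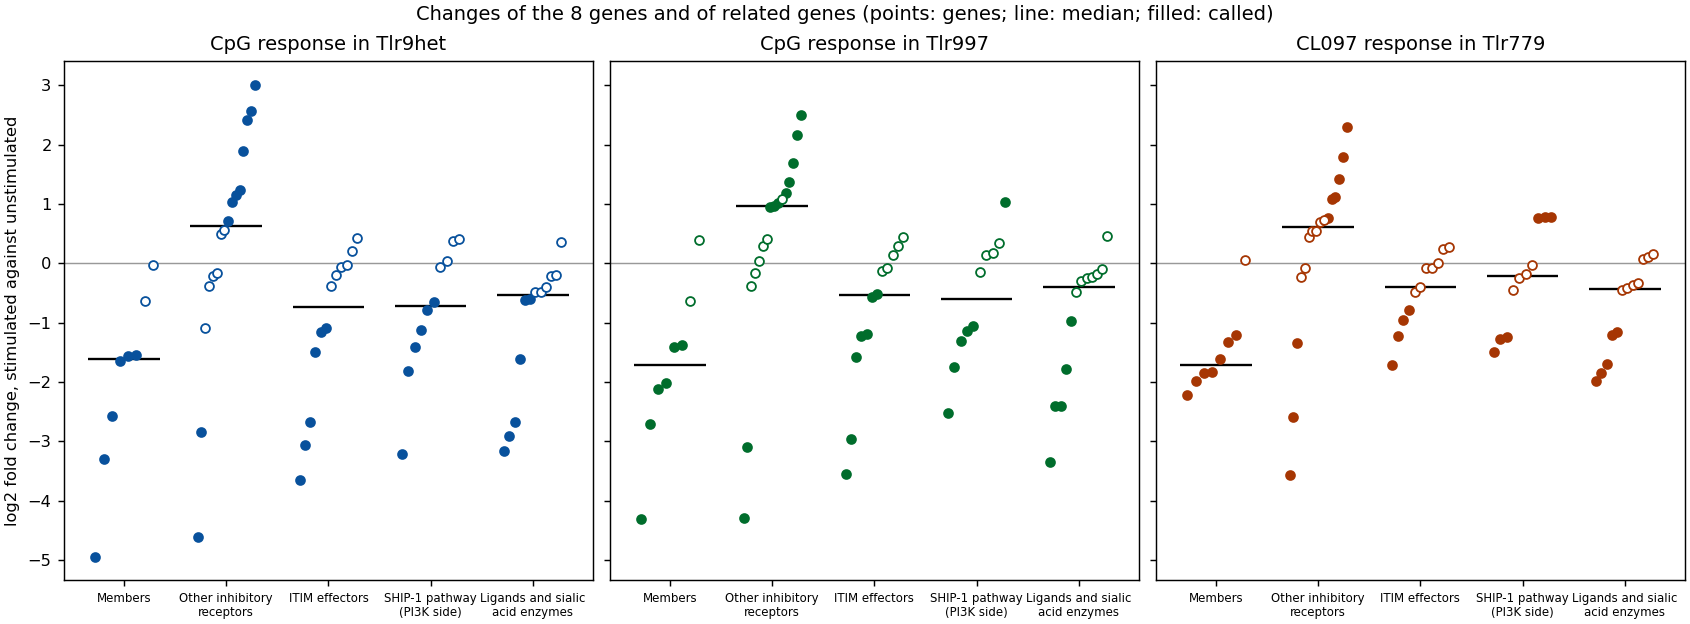
Log2 fold changes (y axis) of the 8 genes and of 4 lists of related genes (x axis) in the 3 stimulus responses. Points are genes, filled where called, and lines are list medians. The medians lie below 0 for the 8 genes, the ITIM effectors, the SHIP-1 pathway and the ligands, and above 0 for the other inhibitory receptors.

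The genotypes of the first arm were then compared. Without stimulus, 0 of the 8 genes were called between Tlr997 and Tlr9het by limma, and 1 (Inpp5d) had an unadjusted p under 0.05. Over all tested genes, 0.0174% were called higher and 0.0% lower. Inpp5d was at 9.87 to 9.96 in Tlr997 and 10.03 to 10.16 in Tlr9het, a log2 difference of -0.20 (SE 0.067, limma adjusted p = 0.36). The 95% intervals of Cd22, Fcgr2b, Cd72 and Siglecg all lay between -0.36 and 0.33, so that larger differences in either direction were outside them.

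With CpG, 1.25% of tested genes were called higher in Tlr997 than in Tlr9het and 1.47% lower. Among the 8 genes Cd22 was called, higher by 0.58 (SE 0.117, limma adjusted p = 0.011), with 5.64 to 6.11 in Tlr997 and 5.20 to 5.26 in Tlr9het. That call was lost without replicate 3 of Tlr997 with CpG (0.44) and without replicate 1 of Tlr9het with CpG (0.56, limma adjusted p = 0.052). Inpp5d was higher by 0.44 (SE 0.067, limma adjusted p = 0.0021), under the fold threshold, with libraries of 5.54 to 5.73 against 5.06 to 5.25. Cd72 (0.42, limma adjusted p = 0.078) and Siglecg (0.34, limma adjusted p = 0.12) were higher and not called. Cd5 (0.68, limma adjusted p = 0.42) and Fcgr2b (0.29, limma adjusted p = 0.26) were not called either, and their 95% intervals included 0. Pirb (-0.61) and Lair1 (-0.56) had differences of the other sign, with 95% intervals that included 0. Both values were smaller without replicate 3 of Tlr997 with CpG, at -0.10 and -0.29, and Pirb was at -0.94 without replicate 2 of that group.

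The CpG response itself was then compared between the genotypes, as the response in Tlr997 minus that in Tlr9het. Over all tested genes, 0.687% were called higher and 0.853% lower. Inpp5d was called, at 0.64 (SE 0.094, limma adjusted p = 0.0042) with responses of -4.30 in Tlr997 and -4.94 in Tlr9het. Its genotype differences were 0.44 with CpG and -0.20 without stimulus, of opposite sign, and neither was called. The same-number changes in Tlr9het, whose libraries pair by number, lay between -5.06 and -4.79. Cd22 differed by 0.59 (SE 0.166, limma adjusted p = 0.098) and was not called. With an offset for each genotype and replicate number it was called at the same value (limma adjusted p = 0.0085). That fit takes same-number libraries as pairs, which the values did not bear out throughout in Tlr997 (r = 0.373, 0.083 and 0.025). Siglecg (0.44, limma adjusted p = 0.20), Cd72 (0.43, limma adjusted p = 0.25), Fcgr2b (0.24), Cd5 (0.92), Pirb (-0.47) and Lair1 (-0.74) were not called, and the widest interval, that of Cd5, ran from -0.33 to 2.17. Unstimulated Tlr997 replicate 3 mattered here. Without it, Cd22 (0.66) and Siglecg (0.57) were called besides Inpp5d. Calls over all tested genes then rose too, from 79 to 143 higher and from 98 to 152 lower.

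Of the 8 B cell markers, 3 were called higher and 0 lower in Tlr997 against Tlr9het with CpG, beside 1.25% and 1.47% of all tested genes. Ms4a1 (CD20), Cd79b and Ebf1, an early B cell transcription factor, differed by 1.26, 1.04 and 0.79 (limma adjusted p = 7.9e-07, 0.0022 and 7.9e-07), while Blk (0.13), Cd79a (0.04), Pax5 (-0.13) and Cd37 (-0.29) were not called. The summed CPM of the 8 markers was 3058 to 3624 against 2057 to 2111. Btk was higher by 0.59 (limma adjusted p = 3.4e-04), and the difference of its responses was 0.70 (limma adjusted p = 0.0028). Lyn was lower by 0.31 (limma adjusted p = 0.0048), under the fold threshold. The part of these differences in the values of Cd22 and Inpp5d was not tested.

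**Figure D4:**
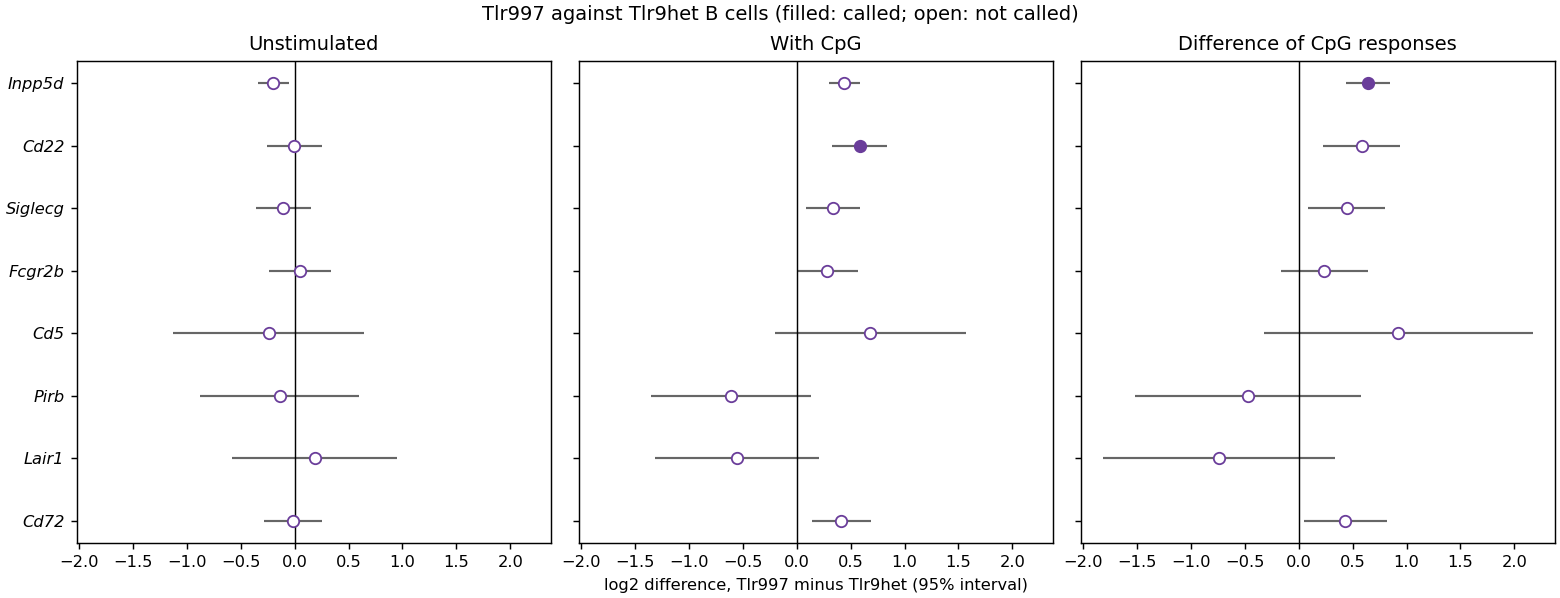
Log2 difference of each gene between Tlr997 and Tlr9het B cells (x axis) without stimulus, with CpG, and in the CpG response, with 95% intervals from limma. Filled points were called and open points were not. Cd22 was called with CpG and Inpp5d in the response, while Pirb, Lair1 and Cd5 have the widest intervals.

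Across the 12 libraries of the first arm, the genes with the most similar pattern to each of the 8 were found by Pearson's r over all tested genes, as a description. These libraries share their groups and stimulus, so that high values are common. For Inpp5d they were Myo1c (0.9994), Add1 (0.9992) and Acss1 (0.9991), for Cd22 they were Cep164 (0.998), Trmt2b (0.998) and Scd1 (0.998), and for Siglecg they were Cep120 (0.998), Rnf13 (0.997) and Ncoa1 (0.997). For Fcgr2b they were Slc25a45 (0.996), B3gnt5 (0.994) and Pdia4 (0.994). Cd72 had a looser set, led by Fcer2a (0.933), the low-affinity IgE receptor of B cells, then Myb (0.849) and Grpel2 (0.828). Pirb was nearest to Sft2d2 (0.973), Kalrn (0.970) and Bbs9 (0.965), Lair1 to Lrba (0.938), Dnajc3 (0.929) and Dirc2 (0.928), and Cd5 to Sla2 (0.947), Mis18a (0.932) and Ints9 (0.930). Among the 8 themselves, Inpp5d, Cd22, Siglecg and Fcgr2b correlated pairwise at 0.975 to 0.992, and Cd72 had negative values with all the others, from -0.586 to -0.075.

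The windows of 250 bases before the start of Inpp5d and of Cd72 (RefSeq, GRCm38.p6) are printed for the gene that fell most and the one that was not called. Capitals mark GGAAGT or its reverse complement ACTTCC, a core bound by ETS family factors. The first lies at chr1:87620062-87620311 on the plus strand and the second at chr4:43454627-43454876 on the minus strand.
Inpp5d: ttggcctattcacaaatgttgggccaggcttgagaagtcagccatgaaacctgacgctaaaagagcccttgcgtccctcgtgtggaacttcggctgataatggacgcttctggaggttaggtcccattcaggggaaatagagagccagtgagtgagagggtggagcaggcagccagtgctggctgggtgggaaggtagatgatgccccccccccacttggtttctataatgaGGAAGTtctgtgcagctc
Cd72: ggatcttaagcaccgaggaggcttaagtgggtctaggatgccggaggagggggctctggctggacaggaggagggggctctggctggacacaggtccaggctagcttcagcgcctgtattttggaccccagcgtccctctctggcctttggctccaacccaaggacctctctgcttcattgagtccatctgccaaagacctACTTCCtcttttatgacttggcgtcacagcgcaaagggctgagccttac

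All 8 genes had such a window. GGAAGT on either strand was in the windows of 5 of 8 genes, Inpp5d, Cd72, Fcgr2b, Cd5 and Pirb, and in 19.8% of 32536 windows of the same length over the genome. It lay 13 to 18 bases before the start in Inpp5d, 26 to 31 in Fcgr2b and 44 to 49 in Cd72. It was in none of the windows of Cd22, Siglecg and Lair1, so that genes with large falls were among both those with and those without it. TATAAA and the NF-κB motif were in 0 of the windows of the 8 genes, against 12.3% and 7.3% of all windows, and the E-box CANNTG was in the windows of 7 of the 8 genes (all but Siglecg), against 66.2% of all windows. A match is a run of letters and not a shown binding site, and no match says only that the letters are absent from this window.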

How the data were processed

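RNA was taken from bead-purified splenic B cells, 3 libraries per group, and the authors made stranded mRNA libraries, trimmed reads with Trim Galore (0.6.5), aligned them with STAR (2.6.1a) to mm10 and counted genes with featureCounts (Subread 2.0.1). The deposited values are log2 CPM after quantile normalization and voom by the authors, without counts, so the depth and counting error are unknown. Low values carry voom's offset, which understates changes of low genes. In the first arm 6614 genes stayed below -4 throughout, and 822 of them had 1 value for each replicate number, the same in all groups but not for all numbers, so the values may have been adjusted by number before deposit, a step not given in the sources used here.

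limma (3.58.1, R 4.3.3) was fitted to the log2 values with a mean per group and a variance trend, over the 12 libraries of the first arm or the 6 of the second, for genes over 0 log2 CPM in at least 3 libraries. Calls needed an absolute log2 fold change over 0.5 together with a Benjamini-Hochberg adjusted p under 0.05. The 95% intervals are limma's for single genes. The fit was tested on simulated data. The labels give 3 mice per genotype but do not tie libraries to mice.

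The 8 genes and the lists of related and marker genes were chosen with earlier results of these data known. The 8 genes are given in every library, list genes where called (at most 4 per list, by absolute fold change, largest first, 1 gene not being reported here), and the 3 genes nearest each member in Pearson's r. Lyn, H2-D1, H2-K1, B2m, Btla, Cd79a, Blk, Pax5, Cd37 and Cd3e were named after their values were seen. Same-number libraries deviated together in Tlr9het (r = 0.513, 0.287 and 0.509) and Tlr779 (0.252, 0.485 and 0.334), which pairs them, but not throughout in Tlr997 (0.373, 0.083 and 0.025). Levels per kb use exon lengths of GENCODE on GRCm38. Alternatives were a fold threshold of 1, other filters, a replicate block, array quality weights, separate fits and each library left out. The replicate block was an offset per number, or per genotype and number for the CpG responses and their difference.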

Additional observations from a re-analysis of the deposited data

Results flagged for a closer look

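The difference of the CpG responses of Inpp5d, 0.6407 on the log2 scale (Tlr997 minus Tlr9het, limma adjusted p = 0.0042), stood out because the test of the difference between the genotypes itself was passed. The 3 libraries with CpG lay far below the 3 without in both genotypes. The value takes in a genotype difference of 0.44 with CpG and one of -0.20 without stimulus, neither of which was called. The difference was past both thresholds in 21 of 22 alternatives, with values of 0.58 to 0.68, the exception being the fold threshold of 1.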

How the results depend on the processing

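Of the values of single genes recomputed under alternatives, 995 kept their direction and side of the threshold, 8 passed it, 5 lost it and 17 changed sign, none of the last being called. For the counts of members called, 121 were within 1.5 times and 9 were not. With a fold threshold of 1, the counts became 0 for Tlr997 against Tlr9het with CpG and 0 for the difference of responses, by construction. Without the filter, more genes are tested and the former was 0 (Cd22 adjusted p = 0.090). With the replicate block the latter was 2 and with array quality weights 3. Over all tested genes the main fit of the latter gave 79 calls higher and 98 lower. These became 160 and 169 with the block and 182 and 195 with the weights. Leaving out 1 library gave 0 to 2 and 1 to 3 members. Among all genes the former then had 83 to 181 called higher and 103 to 229 lower. The latter had 33 to 143 and 53 to 152. The block changed no other call. The sign changes were in Cd72 (CpG in Tlr9het 0.019 with array quality weights and -0.14 to 0.024 without 1 library, CL097 -0.056 to 0.18 without 1 library), in the unstimulated comparison without 1 library (Cd22 -0.081 to 0.099, Fcgr2b -0.042 to 0.17, Cd72 -0.12 to 0.13, Pirb -0.28 to 0.027, Lair1 -0.094 to 0.40) and with array quality weights (Lair1 -0.071), and in the difference for Pirb (-0.79 to 0.041). Lair1 was called with CpG in Tlr9het with array quality weights (-0.72, adjusted p = 0.021), and Siglecg in the difference (0.54, adjusted p = 0.035). The cause was not tested. A stricter filter left out low genes.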
